A study of Mus musculus with 22 samples.

Results

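RNA polymerase II (PolII) occupancy was compared between mid-G1, 2 h after release from a nocodazole arrest, and late-G1, 4 h after release, in cells that kept CTCF. The comparison covered 5 of the 18 PolII ChIP-seq peak lists of the series, 3 from mid-G1 (replicates 1, 2 and 3) and 2 from late-G1 (replicates 2 and 3). Members were all peaks of these lists, 438564 of the 1309572 peaks of the 18 lists, and peaks that overlapped by at least 1 bp were merged into 141895 regions. The libraries came from G1E-ER4, a subline of the mouse proerythroblast line G1E, and both Ctcf alleles carried an AID-mCherry degron tag. GATA1 is absent from the parent line G1E, and the study states that G1E-ER4 cells can be induced to terminal erythroid differentiation. OsTIR, the plant F-box protein that auxin needs to degrade a tagged protein, was present in all cells, while the cells compared here received no auxin. All 5 libraries therefore share the tagged alleles, the OsTIR transgene and the nocodazole arrest. Cells were sorted on DNA content and mCherry, so a population holds cells with 2N DNA at a given time after release and not a directly observed cell cycle position. A further late-G1 replicate was not analysed here, and mid-G1 and late-G1 peaks were called against the input chromatin of their own stage, so input and stage cannot be told apart. Nothing in the labels ties replicates to separate cultures beyond their numbers, and p-values therefore measure the spread between these libraries.

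PolII transcribes all protein-coding genes and most small nuclear RNA genes. It leaves most chromatin in mitosis and returns as daughter cells enter G1, first at promoters and then along gene bodies. At many genes it pauses shortly after the transcription start site (TSS), and it accumulates again after the polyadenylation site, where it slows down before release. During G1, cyclin D with CDK4 or CDK6 prepares entry into S phase, and p53 targets such as the CDK inhibitor p21 (Cdkn1a) oppose it. Genes for mitosis are held down through the cell cycle genes homology region (CHR) in their promoters until late in the cycle. ChIP-seq counts crosslinked PolII in a population, so fewer cells with PolII at a site and less PolII per cell cannot be told apart.

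The windows below belong to the gene and the region with a called change, to a G1 kinase and a G1 inhibitor that stood at opposite ends of the comparison, and to a pair of mitosis genes. They were read from the mm9 assembly (NCBIM37). Each TSS window is 200 bases long and ends 25 bases after the annotated TSS nearest to the peak summit, on the strand of the gene. Capitals mark the motifs that were searched on both strands, each named by the factor or element it is known for. The TATA box was searched as TATAAA. The CCAAT box of the factor NF-Y was searched by its own letters. The GC box of Sp factors was searched as GGGCGG. The site of ETS factors was searched as CCGGAAG. The E-box of Myc and USF was searched as CACGTG. The cyclic AMP response element was searched as TGACGTCA. The element of mitosis genes, the CHR, was searched as TTTGAA. The site of erythroid factors such as GATA2 was searched as AGATAA, and the NRF1 consensus was searched too. Mtfp1 lies at chr11:3995424-3995623 on the minus strand, Cdk4 at chr10:126500485-126500684 on the plus strand, Cdkn1a at chr17:29230542-29230741 on the plus strand, Top2a at chr11:98885479-98885678 on the minus strand and Ncapg at chr5:46060986-46061185 on the plus strand. The last window is the 150 bases around the strongest mid-G1 summit of the called region, at chr17:35284278-35284427 on the plus strand, outside annotated genes.
Mtfp1: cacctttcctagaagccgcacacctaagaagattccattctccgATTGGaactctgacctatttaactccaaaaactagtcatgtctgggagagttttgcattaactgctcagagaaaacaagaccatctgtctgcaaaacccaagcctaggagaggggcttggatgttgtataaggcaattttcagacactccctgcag
Cdk4: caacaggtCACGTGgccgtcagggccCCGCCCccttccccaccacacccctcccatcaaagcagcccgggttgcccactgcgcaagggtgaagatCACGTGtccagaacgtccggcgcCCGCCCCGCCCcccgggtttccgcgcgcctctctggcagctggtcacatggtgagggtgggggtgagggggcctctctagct
Cdkn1a: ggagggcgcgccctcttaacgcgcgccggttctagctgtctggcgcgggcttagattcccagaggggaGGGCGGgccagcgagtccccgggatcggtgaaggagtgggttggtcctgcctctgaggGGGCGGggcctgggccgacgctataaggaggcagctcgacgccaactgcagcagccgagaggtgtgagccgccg
Top2a: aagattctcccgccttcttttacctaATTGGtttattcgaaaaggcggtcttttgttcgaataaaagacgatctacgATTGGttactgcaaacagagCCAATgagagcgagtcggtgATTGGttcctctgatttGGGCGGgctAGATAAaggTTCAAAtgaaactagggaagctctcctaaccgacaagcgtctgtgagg
Ncapg: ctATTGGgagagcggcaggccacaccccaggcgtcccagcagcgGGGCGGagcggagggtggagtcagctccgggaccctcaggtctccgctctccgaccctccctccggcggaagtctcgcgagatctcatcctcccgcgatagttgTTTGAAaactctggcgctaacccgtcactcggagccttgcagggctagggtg
Region between Bag6 and Prrc2a: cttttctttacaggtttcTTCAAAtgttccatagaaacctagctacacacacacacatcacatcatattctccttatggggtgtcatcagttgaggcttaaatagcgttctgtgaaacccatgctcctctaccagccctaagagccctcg
The Mtfp1 window held a reverse CCAAT box as its only searched motif. The Cdk4 window held a pair of E-boxes and 3 reverse GC boxes, the last of which overlap, and the Cdkn1a window a pair of GC boxes. The Top2a window held 4 CCAAT boxes, a GC box, a GATA motif and a reverse CHR close to the start, and the Ncapg window held a CHR 27 bases before the start beside a CCAAT box and a GC box. The region between Bag6 and Prrc2a held a reverse CHR. Over all 8260 measured TSS windows, 32.8% held a CCAAT box, 62.6% a GC box, 9.02% an E-box, 6.46% a CHR and 3.09% a GATA motif. A CHR match stood in 10.1% of the summit windows of the 11461 regions without a coding TSS. A match is a description of the letters and not a bound site.

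Depth was read from the lists themselves, as a relative value, and read totals stated by the study were not used here. The genome-wide background that the peak caller used corresponded to 4.54, 10.2 and 9.42 reads per kb in mid-G1 replicates 1, 2 and 3 and to 9.71 and 13.3 in late-G1 replicates 2 and 3. By this measure of background, mid-G1 replicate 1 was lowest and late-G1 replicate 3 highest. The Ctcf TSS had ranks of 9786.5, 11742 and 7354.5 in mid-G1 and 8897 and 7770 in late-G1, where rank 1 is the strongest fold enrichment of a list. Of 10 genes that define erythroid precursors, 9 had a TSS peak in all 5 lists and Zfpm1 in 3. Of 24 markers of other cell types, 4 had a TSS peak in any list, and Itga2b alone had one in all 5, at ranks 10106.5 to 17804.5, with the Cd3e, Csf1r, Mpo, Alb and Myod1 starts at no peak in any list.

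PolII peaks were not more numerous in late-G1 beyond the spread between libraries. The lists held 50594, 88496 and 102243 peaks in mid-G1 and 80106 and 117125 in late-G1. The stages overlapped, and the late-G1 geometric mean was 1.26-fold that of mid-G1 (exact two-sided permutation p = 0.6). With 3 libraries against 2 there are 10 arrangements, and no exact two-sided p can go below 0.1. Peaks covered 22.7, 57.5 and 51.2 Mb of the genome in mid-G1 and 52.0 and 70.2 Mb in late-G1. This was a 1.49-fold difference with overlapping stages (exact two-sided permutation p = 0.5). Their median width was 277, 340 and 280 bp in mid-G1 and 348 and 322 bp in late-G1 (exact two-sided permutation p = 0.3), with replicate 2 of each stage the widest. Without mid-G1 replicate 1 the covered lengths were 57.5 and 51.2 against 52.0 and 70.2 Mb, and they still overlapped.

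Genes took the largest share of the peaks at both stages. Peaks over a coding TSS made up 18.4%, 11.3% and 10.5% of the mid-G1 lists and 12.4% and 9.05% of the late-G1 lists (exact two-sided permutation p = 0.6). Peaks inside genes without a coding TSS made up 56.3%, 69.2% and 68.2% in mid-G1 and 67.4% and 72.7% in late-G1 (exact two-sided permutation p = 0.6). Peaks within 5 kb after a coding gene's end made up 15.1%, 10.4% and 11.8% in mid-G1 and 10.8% and 9.44% in late-G1, and intergenic peaks 10.3%, 9.10% and 9.53% in mid-G1 and 9.37% and 8.80% in late-G1 (exact two-sided permutation p = 0.4 for either share). In each class the stages overlapped, and the outlying value was that of mid-G1 replicate 1, the list with the lowest background. When every list was limited to its 50594 peaks with the highest −log10 p, called equal list size, the TSS share lay between 18.4% and 19.1% in each of the 5 lists. A TSS peak was found at 8358, 9078 and 9376 of 22342 coding genes in mid-G1 and at 9179 and 9541 in late-G1.

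**Figure D1:**
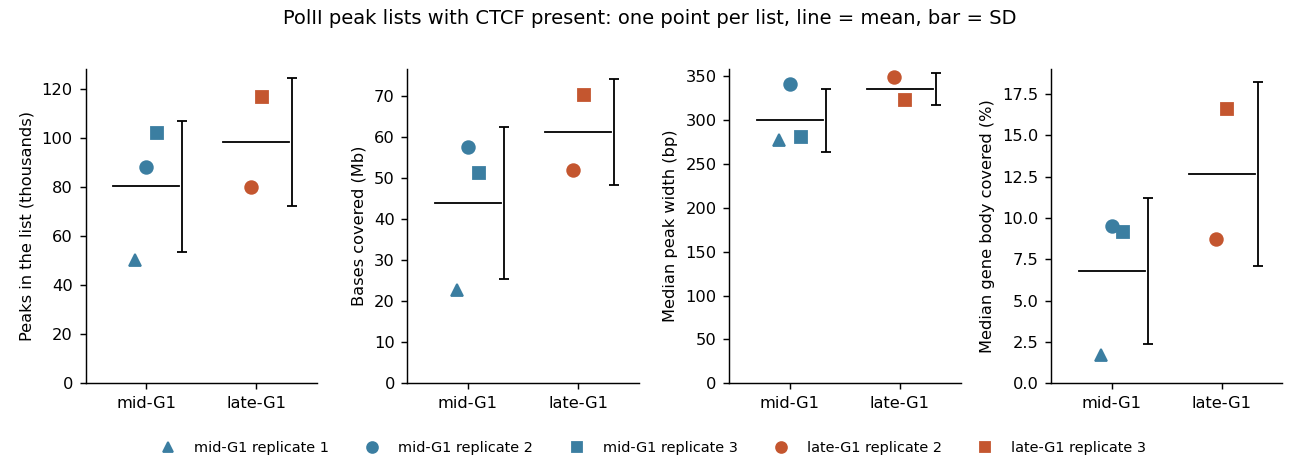
Peak number (in units of 1000), covered length (Mb), median peak width (bp) and median gene body coverage (%) of each library, one point per library for mid-G1 (3) and late-G1 (2), with a line at each stage mean and a bar of 1 SD either side. The mid-G1 and late-G1 points overlap in each panel, and mid-G1 replicate 1, the shallowest library, lies lowest.

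Lists of the same stage were no more alike than lists of different stages. Likeness was measured by the Jaccard index, which divides the length that a pair of lists has in common by their joint length. It was 0.347, 0.355 and 0.497 for the 3 pairs of mid-G1 lists and 0.498 for the late-G1 pair. It ranged from 0.282 to 0.526 over the 6 pairs of 1 mid-G1 and 1 late-G1 list, and the highest of all 10 indices joined mid-G1 replicate 2 with late-G1 replicate 2. The mean within stages was lower than that between stages by 0.0166 (exact one-sided permutation p = 0.6). Across the 8260 coding TSSs with a peak in all 5 lists, the correlation of log2 ranks was 0.840 to 0.873 within mid-G1, 0.816 within late-G1 and 0.753 to 0.866 between the stages, a description across genes that share libraries.

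Of the 141895 regions, 19520 were detected in all 5 lists. Regions detected in both late-G1 lists and in no mid-G1 list numbered 4717, or 3.32% of all regions, and those detected in all 3 mid-G1 lists and in no late-G1 list numbered 263, or 0.185%. The mid-only criterion asks for detection in 3 lists, that with the lowest background included, and the late-only criterion for detection in 2. Pairs of lists from different stages also shared regions found in no other list. For replicate 3 of both stages these numbered 8255 (5.8%), and for mid-G1 replicate 2 with late-G1 replicate 3 they numbered 4491 (3.2%). Replicate 2 of both stages shared 2242, and mid-G1 replicate 3 with late-G1 replicate 2 shared 1254. Without mid-G1 replicate 1 there were 4929 late-only and 2808 mid-only regions. Late-only regions had a median width of 380 bp, against 323 bp for all regions, and median summit reads of 13 and 15 in late-G1 replicates 2 and 3, against 16 and 17 for all regions detected there. Of them 80.1% lay inside genes away from a coding TSS, where 75.8% of all regions lay. Only 2.23% of the late-only and 2.28% of the mid-only regions held a coding TSS, against 7.62% of all regions and 41.3% of those found in all 5 lists. Mid-only regions had a median width of 509 bp, and 14.8% of them lay just after a gene's end, against 6.87% of late-only and 7.67% of all regions. Without mid-G1 replicate 1 the mid-only width was 367 bp and the share after gene ends 9.33%.

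The same regions were then looked up in the lists from auxin-treated cells, which share only the stage inputs with the lists compared here. Of the late-only regions, 41.7% and 33.1% were detected in the late-G1 auxin lists and 34.2%, 43.6% and 16.6% in the mid-G1 auxin lists, so these values overlapped. Of the mid-only regions, 71.5%, 82.1% and 43.7% were detected in the mid-G1 auxin lists and 22.8% and 14.5% in the late-G1 auxin lists. For all regions the corresponding shares were 41.9%, 48.2% and 30.1% in mid-G1 and 35.3% and 30.2% in late-G1. The shares of mid-only regions did not overlap between the auxin stages, and those of late-only regions did.

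The 4 late-only regions with the best mean rank were chr3:30664245-30664889 over an untranslated exon of Samd7, at ranks 9598.5 and 10952, chrX:141940537-141940953, 1052 bp from the TSS of the angiomotin gene Amot, at ranks 13632 and 13129, and chr5:141096603-141096961 over an untranslated exon of Ttyh3 and chr6:134904129-134906277 outside genes, both at ranks 11647 and 15512. The Samd7 region had 30 and 42 summit reads. The 4 best mid-only regions were chr9:120044397-120045576, 7671 bp from the start of Rpsa, at ranks 2267.5, 5793.5 and 16363, chr5:52591582-52592634, 9971 bp from the start of the helicase gene Dhx15, at ranks 11737, 16633 and 10648, chr5:134707793-134708262, 2573 bp from the start of Ncf1, at ranks 15708, 16633 and 9381.5, and chr10:80945673-80946110, 393 bp from the start of Celf5, at ranks 8544.5, 15340 and 19316. The strongest of the mid-only regions, near Rpsa, had 31, 42 and 19 summit reads.

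Among the 19520 regions found in all 5 lists, regions inside genes and after gene ends stood lower in late-G1 more often than higher, and TSS regions higher more often than lower. The change, given throughout as late-G1 minus mid-G1 on the −log2 rank scale, is positive when a region stood nearer the top of the list in late-G1, and +1.00 means a rank number reduced to 0.5 of its value. Its median was 0.087 over 8059 TSS regions, −0.20 over 8211 regions inside genes, −0.26 over 1574 regions just after gene ends, 0.017 over 1676 intergenic regions and −0.074 over all. The ranks of a region did not overlap between stages, with both late-G1 places higher than all 3 mid-G1 places, in 2009 regions (10.3%), and both were lower in 3190 (16.3%). For TSS regions these counts were 1141 higher and 891 lower, for regions inside genes 562 and 1692, for those after gene ends 76 and 392, and for intergenic regions 230 and 215. Ranks of regions are places among the merged regions that a list detected, and ranks of TSS peaks are places among its 50594 to 117125 peaks. Weak peaks can take a lower place in a longer list, and the part of list length in the class medians was not tested. Without mid-G1 replicate 1, 29312 regions were found in the other 4 lists, and 5196 stood higher and 5584 lower.

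At coding TSSs, 1 gene passed the test. The best peak within 250 bp of any annotated start was taken for each coding gene, and 8260 genes had one in all 5 lists. With limma on the −log2 ranks and Benjamini-Hochberg adjustment at 0.05, 1 TSS was higher in late-G1 (0.0121% of those tested) and 0 were lower (0%), with 517 higher and 281 lower at an unadjusted p under 0.05. By the plain criterion that both late-G1 ranks lie outside the range of the 3 mid-G1 ranks, 1408 TSSs (17%) were higher and 722 (8.74%) were lower. This split depended on the scale. On log2 fold enrichment centred on its median, 841 were higher (10.2%) and 1183 lower (14.3%), and the median change over all TSSs was −0.03 where it was 0.21 on the rank scale. Without mid-G1 replicate 1 the counts were 1959 higher and 1226 lower of 8846, and limma then called 0 in either direction, with 431 higher and 260 lower at an unadjusted p under 0.05. A fit of all 14 post-mitotic libraries of the series, early-G1 and auxin groups included, estimates the spread from 8 residual degrees of freedom, against 3 here, and called 144 TSSs (1.76%) higher and 98 (1.2%) lower in late-G1 without auxin, of 8179 tested.

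The called gene was Mtfp1 on chr11:3991483-3995448, which encodes a mitochondrial inner membrane protein that takes part in mitochondrial fission. Its TSS peak ranked 19618, 18965 and 11004 in mid-G1 and 458.5 and 551 in late-G1. Both late-G1 places were far above all mid-G1 places, a change of 4.99 ± 0.49 (SE, limma adjusted p = 0.00492). Its summit held 12, 22 and 33 reads in mid-G1 and 129 and 202 in late-G1. The coverage of its body beyond the first 500 bp stayed at 0% in all lists but late-G1 replicate 3, where it was 12.9%. In early-G1 without auxin it ranked 8756 and 1253.5, so the mid-G1 places were the lowest of the 3 stages. In auxin-treated cells it ranked 22157, 20614 and 41471 in mid-G1 and 733 and 560.5 in late-G1 (change 5.38 ± 0.39, SE, limma adjusted p = 0.0011). The call was lost without mid-G1 replicate 1 (limma adjusted p = 0.104) or replicate 2 (limma adjusted p = 0.0581), while the change stayed at 4.85 and 4.87.

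**Figure D2:**
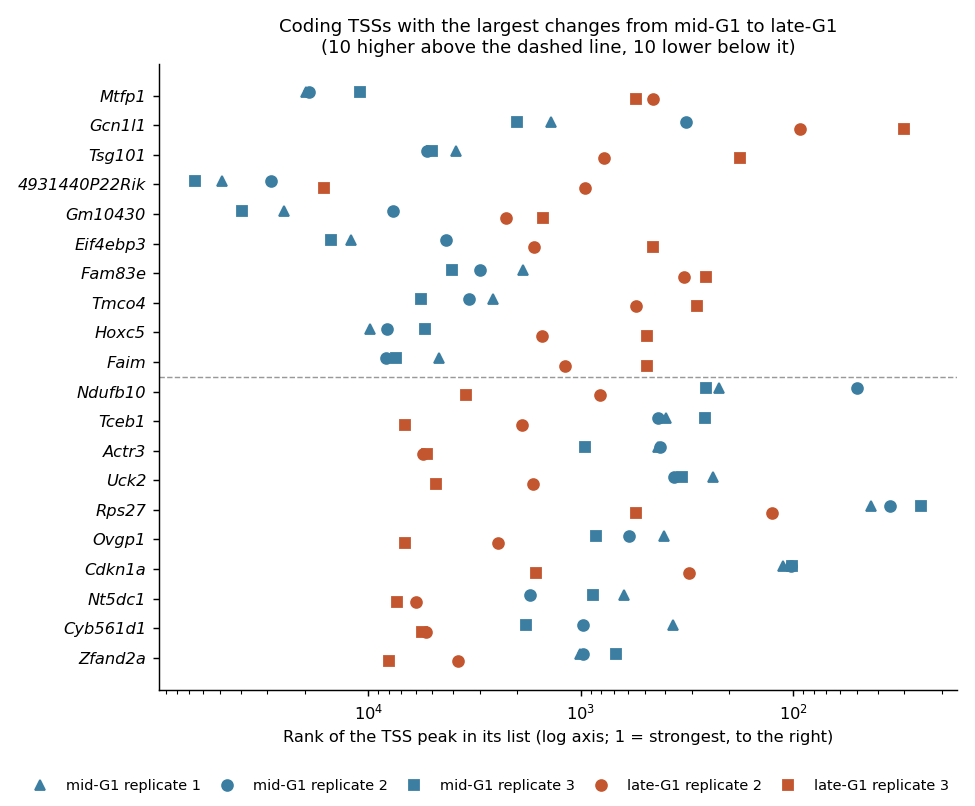
Rank of the TSS peak of the 20 coding genes named by the rule of largest change, on a log axis with rank 1 at the strong end, one point per library for mid-G1 (3) and late-G1 (2). The 10 genes higher in late-G1 and the 10 lower do not overlap between the stages, as the rule requires, and Mtfp1 alone passed the adjusted test.

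The other 9 genes named for a higher place in late-G1 did not pass the test of the 5 libraries, with limma adjusted p-values of 0.0999 to 0.216. Gcn1l1, whose product activates the amino acid sensing kinase GCN2, ranked 1384.5, 319 and 2003 in mid-G1 and 93 and 30 in late-G1. Tsg101, a subunit of the ESCRT-I complex that sorts membrane proteins, ranked 3866, 5319.5 and 5000.5 in mid-G1 and 774.5 and 178.5 in late-G1. Hoxc5, a homeobox transcription factor gene, ranked 9786.5, 8187 and 5432.5 in mid-G1 and 1522 and 489 in late-G1. These 3 genes were higher in each late-G1 library, by 4.18 ± 0.78, 3.66 ± 0.62 and 3.14 ± 0.58 (SE). Faim, an inhibitor of Fas-induced apoptosis, ranked 4646.5, 8280 and 7426 in mid-G1 and 1190 and 489 in late-G1 (change 3.11 ± 0.54, SE). The remaining 5 were Tmco4 (3.22), Fam83e (3.28), Eif4ebp3 (3.40), an inhibitor of the cap-binding protein eIF4E, and the uncharacterised genes Gm10430 (3.41) and 4931440P22Rik (3.52), the last with late-G1 ranks of 959 and 16170. In the fit of 14 libraries 7 of these 9 passed, Fam83e did not (limma adjusted p = 0.0685), and 4931440P22Rik was not measured in all 14.

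The 10 genes named for a lower place in late-G1 stood high in the mid-G1 lists, and none passed the test of the 5 libraries. Cdkn1a, the p21 gene on chr17:29227924-29237667, ranked 112, 102 and 101.5 in mid-G1 and 311 and 1627 in late-G1 (change −2.76 ± 0.65, SE, limma adjusted p = 0.143). Uck2, a pyrimidine salvage kinase, ranked 238, 363 and 333 in mid-G1 and 1688 and 4799.5 in late-G1 (change −3.22 ± 0.55, SE, limma adjusted p = 0.0999). Actr3, which encodes the actin-nucleating protein Arp3, ranked 434, 424 and 958 in mid-G1 and 5553 and 5289 in late-G1 (change −3.27 ± 0.52, SE, limma adjusted p = 0.0999). All late-G1 places of these genes lay below all mid-G1 places. The other 7 were Ndufb10 (−3.57), a subunit of respiratory complex I, Tceb1 (−3.33), which encodes elongin C, Rps27 (−2.97), a ribosomal protein gene whose peak also serves Rab13, Ovgp1 (−2.79), Nt5dc1 (−2.75), Cyb561d1 (−2.66) and Zfand2a (−2.65), a stress-induced zinc finger gene. In the fit of 14 libraries 9 of the 10 passed, and Ndufb10 did not (limma adjusted p = 0.246).

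Summit reads of these genes overlapped between the stages or were higher in late-G1, as the following examples show. Cdkn1a held 109, 195 and 204 summit reads in mid-G1 and 199 and 221 in late-G1, and Uck2 held 88, 142 and 159 in mid-G1 and 144 and 170 in late-G1. The TSS in 1000th place of its list held 44, 95 and 110 reads in mid-G1 and 102 and 166 in late-G1, and the TSS in 100th place held 113, 213 and 214 in mid-G1 and 225 and 246 in late-G1. Late-G1 replicate 3 was thus the list in which strong TSSs differed least from each other, so a given number of reads had the lower place there. Its part in the changes was not tested.

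Among the 19520 regions tested with limma, 0 were higher (0%) and 1 was lower (0.00512%) at an adjusted p under 0.05, and 697 higher and 1247 lower at an unadjusted p under 0.05. It was chr17:35281212-35287921, a region of 6710 bp between the ends of Bag6, which encodes a chaperone of membrane proteins, and Prrc2a, whose 3′ parts it overlaps. It ranked 303, 252.5 and 394.5 in mid-G1 and 4120 and 4048 in late-G1. Both late-G1 places lay far below the mid-G1 places, a change of −3.71 ± 0.39 (SE, limma adjusted p = 0.043). In early-G1 without auxin it ranked 222 and 178. In auxin-treated cells it ranked 373.5, 251 and 385.5 in mid-G1 and 5001 and 1728 in late-G1. Its summit held 66, 143 and 134 reads in mid-G1 and 110 and 183 in late-G1, and peaks covered 3972, 6366 and 5970 bp of it in mid-G1 and 5266 and 6572 bp in late-G1, so that its best peak changed place while its extent overlapped between stages. The call was lost without any 1 of the mid-G1 replicates (limma adjusted p = 0.103 to 0.392), without late-G1 replicate 3 (limma adjusted p = 0.505), with the replicate number as a block (limma adjusted p = 0.0903) and on fold enrichment (limma adjusted p = 0.182).

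A further 5 regions were named beside it by the size of their change, and none passed the test of the 5 libraries. Of the higher ones, chr13:48970153-48976610 over Gm8619 and the edge of Fam120a ranked 1738, 1116.5 and 847 in mid-G1 and 243.5 and 116 in late-G1. The intergenic chr1:88382428-88389632 ranked 963, 1429 and 1480 in mid-G1 and 318 and 151 in late-G1. The region chr3:84998701-84999719 in an intron of Arfip1 ranked 5390, 4942 and 5987 in mid-G1 and 963 and 1067 in late-G1, the most even of the 3 within each stage. Of the lower ones, chr1:72301080-72305573, over the lincRNA D230017M19Rik and a small nuclear RNA gene, ranked 2, 9 and 38 in mid-G1 and 168 and 1390 in late-G1. It passed in the fit of 14 libraries and with the replicate number as a block (limma adjusted p = 0.00991 and 0.0348). The region chr9:65047261-65050407, over a gene of the spliceosomal U5 small nuclear RNA, ranked 14, 15 and 10 in mid-G1 and 76 and 284 in late-G1. Both hold small nuclear RNA genes and were among the strongest peaks of the mid-G1 lists by fold enrichment. Their summits held 260 to 335 and 235 to 334 reads in mid-G1 and 321 to 338 and 307 to 322 in late-G1. The region at chr1:72301080-72305573 held the highest summit pileup of its list in mid-G1 replicate 1 (260 reads) and late-G1 replicate 3 (321 reads). Its rank of 1390 in late-G1 replicate 3 is by fold enrichment over local background, and the reason for it was not tested.

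Over all 33 regions that held a small nuclear RNA gene and no coding TSS, 10 stood lower in both late-G1 lists (30.3%) and 1 higher (3.03%). Their median rank was 675, 521 and 445 in mid-G1 and 1901.5 and 1929 in late-G1. Of 69 regions with a small nucleolar RNA gene, 21 stood lower (30.4%) and 8 higher (11.6%), and of 382 with a lincRNA gene 72 stood lower and 33 higher. The 11461 regions without a coding TSS as a whole had 2299 lower (20.1%) and 868 higher (7.57%). Small RNA genes often have near-identical copies and lie inside other genes, so their peaks cannot be assigned to 1 copy with certainty.

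Genes were then grouped by function, and no member of any of the 20 lists passed the 5-library test. Groups are described by how many members stood higher or lower in both late-G1 lists than in all 3 mid-G1 lists, against 17% and 8.74% of all 8260 TSSs, and by their median change less the median of all TSSs (0.21). Counts on fold enrichment stand against 10.2% higher and 14.3% lower of all 8260 TSSs on that scale. The mitotic machinery, genes for chromosome segregation and cytokinesis, had 16 of 47 measured members higher (34.0%) and 4 lower (8.51%), with a relative median of 0.45. With 1 library left out the relative median lay between 0.22, without late-G1 replicate 2, and 0.61, without late-G1 replicate 3. Without mid-G1 replicate 1, 19 were higher and 5 lower. Dlgap5, a mitotic spindle protein, ranked 44176, 82451 and 19289 in mid-G1 and 9156.5 and 9741.5 in late-G1 (change 2.13 ± 0.61, SE). Kif2c, a microtubule-depolymerising kinesin of the centromere, ranked 31436, 13444 and 22626 in mid-G1 and 6318.5 and 4762.5 in late-G1 (change 1.95 ± 0.52, SE). Both passed in the fit of 14 libraries (limma adjusted p = 0.0233 and 0.0184), as did 2 further members. Ube2c and Psrc1 stood lower, from 2560, 3216 and 3442 to 8016 and 8182 for Ube2c, an E2 enzyme of the anaphase-promoting complex, and from 12718, 10388 and 17882 to 42770 and 80673 for the spindle protein Psrc1 (limma adjusted p = 0.0476 and 0.0298 in the fit of 14 libraries).

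**Figure D3:**
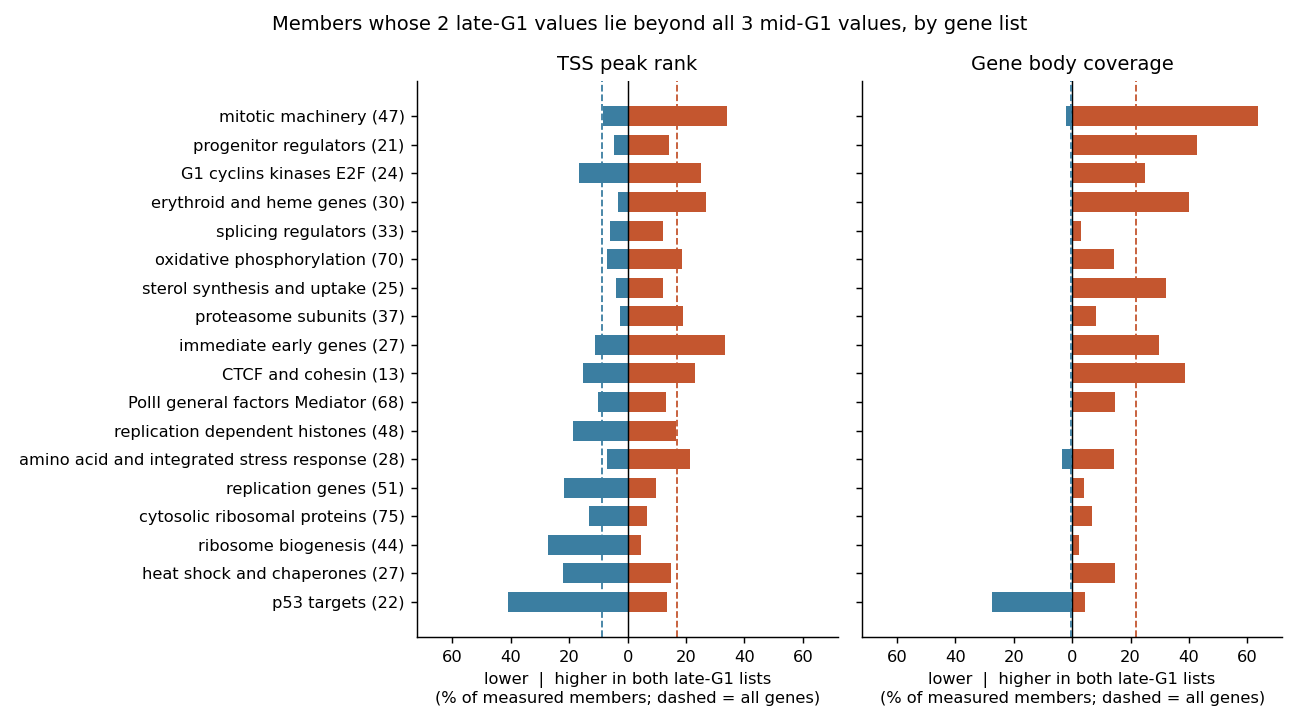
Share of measured members of each of 18 gene lists, without the marker lists (%), whose values did not overlap between the stages, drawn to the right where both late-G1 lists were higher and to the left where both were lower, for TSS ranks in one panel and gene body coverage in the other. Dashed lines mark the shares over all genes, and mitotic machinery (34.0% and 63.8% higher) and p53 targets (40.9% and 27.3% lower) lie on opposite sides.

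Targets of p53 stood lower more often than higher in late-G1. Of 22 measured members, 9 stood lower (40.9%) and 3 higher (13.6%), and the relative median was −0.76. With 1 library left out it lay between −0.91, without late-G1 replicate 2, and −0.46, without late-G1 replicate 3. On fold enrichment 10 were lower and 1 higher. By rank and without mid-G1 replicate 1, 11 were lower and 3 higher. Beside Cdkn1a, the lowest change was that of Dcxr, a carbonyl reductase gene, with ranks of 2893.5, 2013 and 3255.5 in mid-G1 and 6885.5 and 14914 in late-G1 (change −1.93 ± 0.52, SE, limma adjusted p = 0.0257 in the fit of 14 libraries). Outside the naming rule, Ccng1 and Mdm2 were picked from the members that stood lower. Ccng1, a cyclin G gene induced by p53, ranked 252.5, 166 and 308.5 in mid-G1 and 385 and 656 in late-G1. Mdm2, the ubiquitin ligase that degrades p53, ranked 2451.5, 740 and 1644.5 in mid-G1 and 2477 and 3213.5 in late-G1. At the upper end, the nucleotide excision repair genes Xpc and Ddb2 stood higher in late-G1, Xpc with ranks of 10671, 7978 and 8435 in mid-G1 and 5081 and 3564.5 in late-G1, and Ddb2 with 12718, 11118 and 7131.5 in mid-G1 and 4288.5 and 6935 in late-G1. Their changes were 1.07 ± 0.47 and 0.88 ± 0.50 (SE).

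The G1 cyclins, their kinases, inhibitors and E2F factors had members at both ends. Of 24 measured, 6 stood higher and 4 lower, with a relative median of 0.11, which was 0.015 without mid-G1 replicate 1 and 0.25 without late-G1 replicate 3. Cdk4, the kinase partner of the D cyclins, ranked 16455, 12223 and 9910.5 in mid-G1 and 1217 and 1946.5 in late-G1 (change 3.03 ± 0.49, SE, limma adjusted p = 0.0298 in the fit of 14 libraries). All late-G1 places of Cdk4 were above all mid-G1 places. Ccnd3 (cyclin D3) ranked 14742, 8518.5 and 6504.5 in mid-G1 and 5270.5 and 4173.5 in late-G1, while E2f3 ranked 783.5, 1334 and 422 in mid-G1 and 1497 and 2631 in late-G1. Cdkn1a belongs to this list too and had its lowest change. Of 51 replication genes, 5 stood higher and 11 lower, with a relative median of −0.22, which was −0.018 without mid-G1 replicate 3. Tyms (thymidylate synthase) ranked 6502.5, 5920 and 5681 in mid-G1 and 1354 and 1238 in late-G1, whereas Uhrf1, which guides maintenance of DNA methylation, ranked 959.5, 849 and 711.5 in mid-G1 and 2901.5 and 5092 in late-G1. Both passed in the fit of 14 libraries, Tyms higher and Uhrf1 lower (limma adjusted p = 0.0167 and 0.00452). Of the same list, the changes of the S-phase kinase gene Cdc7 and the origin recognition subunit Orc6 were 1.36 ± 0.54 and −1.55 ± 0.48 (SE).

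Of 48 replication-dependent histone genes measured, 8 stood higher and 9 lower, and on fold enrichment 0 were higher and 12 lower. Hist1h3i ranked 93, 103 and 325.5 in mid-G1 and 41 and 18 in late-G1, and Hist1h4j 307, 142.5 and 145 in mid-G1 and 74.5 and 32.5 in late-G1. The linker histone gene Hist1h1a ranked 31, 25 and 66.5 in mid-G1 and 194 and 195 in late-G1, and Hist3h2a 64, 24 and 27 in mid-G1 and 84 and 511.5 in late-G1. Histone genes lie side by side in clusters and held some of the strongest peaks of every list, so neighbouring genes share signal. Immediate early genes, which respond to growth factors within minutes, had 9 of 27 higher (33.3%) and 3 lower (11.1%). Without mid-G1 replicate 1, 9 were higher and 7 lower, where 22.1% and 13.9% of all TSSs were. Gadd45b, a growth arrest gene, ranked 276, 376 and 619 in mid-G1 and 46 and 52.5 in late-G1 (change 3.03 ± 0.51, SE, limma adjusted p = 0.00355 in the fit of 14 libraries). The kinase gene Pim1 ranked 471, 557 and 203 in mid-G1 and 145.5 and 52.5 in late-G1. Mcl1, a BCL2 family survival gene, ranked 61, 76 and 82 in mid-G1 and 171 and 562.5 in late-G1, and the antiproliferative gene Btg2 had overlapping ranks and a change of −1.66 ± 0.83 (SE). On fold enrichment 1 immediate early gene was higher and 5 were lower, where 10.2% of all TSSs were higher and 14.3% lower. The balance of this list thus depended on the scale, as did that of all TSSs.

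Genes of growth had more members lower than higher in 3 of the lists. Ribosome biogenesis, the making of ribosomal RNA and its assembly, had 2 of 44 members higher (4.55%) and 12 lower (27.3%), with a relative median of −0.32. Npm1 (nucleophosmin) ranked 161, 154 and 180 in mid-G1 and 384 and 1609 in late-G1, and Nop10 513, 285 and 253.5 in mid-G1 and 899 and 2524 in late-G1. Polr1a, the largest subunit of RNA polymerase I, stood higher, at 2031, 2736.5 and 3644 in mid-G1 and 448 and 625.5 in late-G1 (change 2.36 ± 0.49, SE, limma adjusted p = 0.00895 in the fit of 14 libraries). The second higher member was Ubtf, a factor of ribosomal DNA transcription. Of 75 cytosolic ribosomal protein genes, 5 stood higher and 10 lower with a relative median of −0.27, and on fold enrichment 0 were higher and 26 lower. Rps12 ranked 97, 124 and 185 in mid-G1 and 39.5 and 16 in late-G1, and Rpl21 1170, 2154.5 and 3524.5 in mid-G1 and 405 and 541 in late-G1. Rpl7a ranked 182, 190.5 and 182 in mid-G1 and 453 and 1137 in late-G1 from the peak it shares with the Mediator gene Med22. Heat shock and chaperone genes had 4 of 27 higher and 6 lower, with a relative median of −0.47. The changes of Hspa4 and the chaperonin subunit gene Cct3 were 1.71 and 1.61, and those of the endoplasmic reticulum chaperone genes Calr and Canx −1.93 and −1.30. With 1 library left out the relative median lay between −0.50 and −0.25 for ribosome biogenesis. It was −0.087 for ribosomal proteins without late-G1 replicate 2, and −0.23 for chaperones without mid-G1 replicate 1.

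In the remaining lists of general function, members are given with their change on the −log2 rank scale. Over all TSSs 17% stood higher and 8.74% lower by rank, and 10.2% and 14.3% on fold enrichment. Oxidative phosphorylation had 13 of 70 higher and 5 lower (8 and 8 on fold enrichment, 22 and 11 without mid-G1 replicate 1), from Ndufc1 (2.19) and Uqcr10 (1.40) to Ndufc2 (−1.40) and Ndufb10. Proteasome subunits had 7 of 37 higher and 1 lower (4 and 5 on fold enrichment), from Psma2 (1.39) and Psmb9 (0.81) to Psma1 (−0.70) and Psma5 (−0.76). PolII subunits, general factors and Mediator had 9 of 68 higher and 7 lower (2 and 6 on fold enrichment), from Med19 (1.72) and Taf13 (1.71) to Gtf2b (−1.50) and Med22 (−1.96). Splicing regulators had 4 of 33 higher and 2 lower (1 and 3 on fold enrichment), from Hnrnpa2b1 (1.60) and Srsf4 (1.26) to Srsf6 (−2.20) and Srsf5 (−2.45), and both of the last passed in the fit of 14 libraries (limma adjusted p = 0.0125 and 0.0201). Sterol synthesis had 3 of 25 higher and 1 lower (0 and 3 on fold enrichment), from Fdps (2.91) and Fdft1 (1.65) to Srebf2 (−0.24) and Mvk (−1.52). The amino acid and integrated stress response had 6 of 28 higher and 2 lower, from the aminoacyl-tRNA synthetase genes Nars (2.74) and Mars (1.89) to Sesn2 (−0.96) and the amino acid transporter gene Slc7a5 (−0.98). CTCF and cohesin genes had 3 of 13 higher and 2 lower (1 and 2 on fold enrichment), from Cdca5 (1.14) and the cohesin loader gene Mau2 (0.63) to Esco2 (−1.04) and Pds5a (−1.41). Of the members named in these lists, Psma5, Hnrnpa2b1, Fdps, Fdft1, Srebf2, Mars and Slc7a5 had ranks that overlapped between the stages. The SE was 1.93 for Hnrnpa2b1 and 1.07 for Fdps.

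Erythroid and heme genes had 8 of 30 higher (26.7%) and 1 lower (3.33%). Tfrc, the transferrin receptor that brings iron into the cell, ranked 349.5, 513 and 1714 in mid-G1 and 133.5 and 169 in late-G1 (change 2.17 ± 0.65, SE, limma adjusted p = 0.0298 in the fit of 14 libraries). Klf1, the erythroid Krüppel-like factor, ranked 1632, 1019 and 1589 in mid-G1 and 722.5 and 108.5 in late-G1 (change 2.30 ± 0.71, SE). Tal1 ranked 394.5, 740 and 963.5 in mid-G1 and 1067.5 and 2397.5 in late-G1, below its mid-G1 places, and Nfe2 had overlapping ranks. Of the erythroid markers alone, 3 of 9 were higher and 1 lower. Progenitor regulators had 3 of 21 higher and 1 lower. Kit, the receptor for stem cell factor, ranked 288, 522 and 297 in mid-G1 and 551.5 and 371 in late-G1, and Hhex and Lmo2 had overlapping ranks and changes of 2.08 ± 1.51 and 1.49 ± 0.80 (SE). The Polycomb gene Bmi1 ranked 4424, 2790 and 2498 in mid-G1 and 6524.5 and 6828 in late-G1, the only member of the list with both late-G1 places below all of mid-G1. The relative median of the erythroid list (0.090) was negative without mid-G1 replicate 1 and with the replicate block, while that of the progenitor list (0.20) lay between 0.078, without late-G1 replicate 3, and 0.36, without mid-G1 replicate 3.

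PolII along gene bodies was measured as the share of a gene, from 500 bp after its annotated gene start to its end, that peaks covered. Where the TSS with the peak lies further inside the gene, that peak counts towards the body. Over 8145 coding genes with a TSS peak in all 5 lists its median was 1.72%, 9.51% and 9.16% in mid-G1 and 8.75% and 16.6% in late-G1. The stages overlapped (exact two-sided permutation p = 0.6), with mid-G1 replicate 1 lowest and late-G1 replicate 3 highest. At equal list size the medians were 1.72%, 5.67% and 4.44% in mid-G1 and 5.83% and 7.67% in late-G1. The median coverage of the 5 kb after gene ends was 9.12%, 32.7% and 31.1% in mid-G1 and 26.8% and 41.0% in late-G1 (exact two-sided permutation p = 0.6). Both late-G1 values exceeded all mid-G1 values in 1767 genes (21.7%) and both were smaller in 41 (0.503%). At equal list size these counts were 1790 and 86, and without mid-G1 replicate 1 they were 1776 and 364. Without late-G1 replicate 2 they were 5284 and 94, and without mid-G1 replicate 2 they were 3298 and 47.

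Bodies of the mitotic genes had more coverage in late-G1 more often than bodies of all genes. Of 47 genes 30 had more coverage in both late-G1 lists (63.8%) and 1, Psrc1, had less, and at equal list size 25 had more and 1 less. Coverage was low in most of them, with medians of 0%, 2.23% and 3.44% in mid-G1 and 7.09% and 14.7% in late-G1. Members from the lower and the upper end of the list are named here after their values were seen. Top2a, the topoisomerase that untangles sister chromosomes, was covered over 1.96%, 21.0% and 29.6% in mid-G1 and 58.0% and 82.5% in late-G1. The condensin gene Ncapd2 was covered over 1.43%, 11.1% and 22.9% in mid-G1 and 50.4% and 57.8% in late-G1. Cdk1, the kinase that drives mitosis, was covered over 2.74%, 15.5% and 28.8% in mid-G1 and 30.0% and 54.4% in late-G1. All 3 had more coverage in each late-G1 list than in any mid-G1 list. For Ccnb1 (cyclin B1) the values were 0%, 0% and 0.633% in mid-G1 and 5.43% and 28.2% in late-G1, and for Birc5 (survivin) 0%, 0% and 3.26% in mid-G1 and 4.45% and 46.6% in late-G1, where late-G1 replicate 3 carried most of the difference. Kif11, the spindle kinesin Eg5, had 0% in all 3 mid-G1 lists and 3.75% and 4.87% in late-G1.

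**Figure D4:**
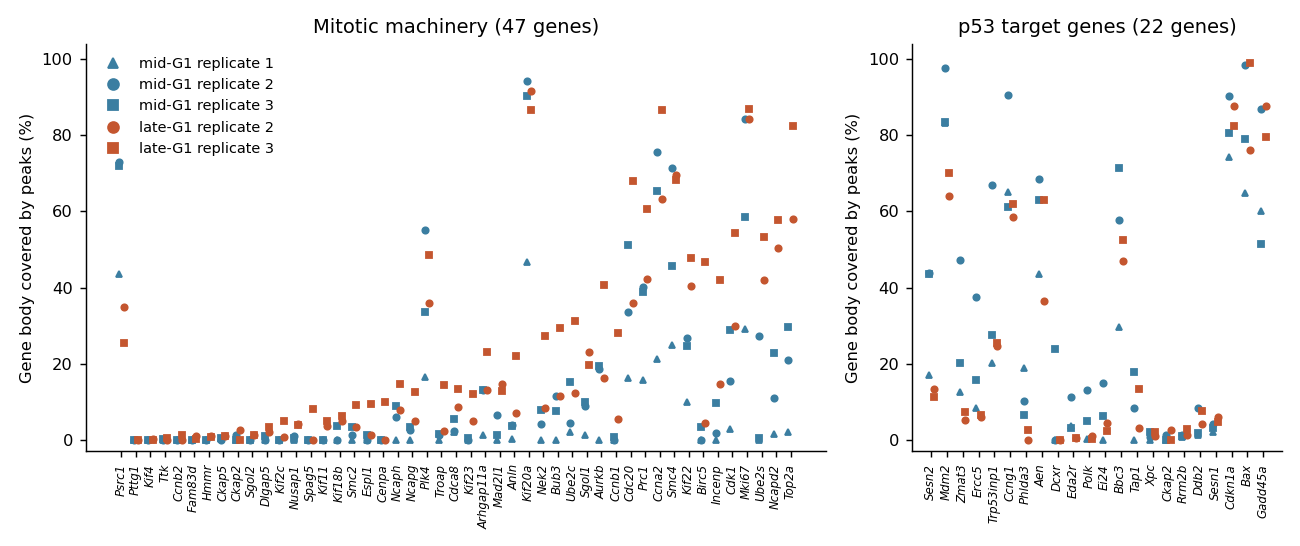
Coverage of gene bodies by peaks (%), one point per library for mid-G1 (3) and late-G1 (2), for the 47 measured genes of the mitotic machinery and the 22 measured p53 targets. Top2a reaches 58.0% and 82.5% in late-G1 from at most 29.6% in mid-G1, and Sesn2 stands at 13.3% and 11.2% from at least 17.1%.

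Bodies of p53 targets had less coverage in late-G1 more often than more. Of 22 genes 6 had less coverage in both late-G1 lists (27.3%) and 1, Sesn1, had more, and without mid-G1 replicate 1 these counts were 10 and 1. Sesn2, a stress-induced inhibitor of mTORC1 signalling, was covered over 17.1%, 43.8% and 43.7% in mid-G1 and 13.3% and 11.2% in late-G1. Zmat3, an RNA-binding target of p53, was covered over 12.7%, 47.2% and 20.3% in mid-G1 and 5.24% and 7.43% in late-G1. Mdm2 was covered over 83.3%, 97.8% and 83.6% in mid-G1 and 64.1% and 70.0% in late-G1. For Ercc5 the values were 8.37%, 37.5% and 15.8% in mid-G1 and 5.89% and 6.41% in late-G1, and Eda2r and Phlda3 completed the 6. Cdkn1a, with a lower TSS place, kept a body coverage of 74.4%, 90.4% and 80.6% in mid-G1 and 87.6% and 82.4% in late-G1, which overlapped. The annotated start nearest to its TSS peak, at position 29230717, lies inside this measured body.

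The 5 genes with the largest gain in body coverage were Ost4, a subunit of the oligosaccharyltransferase, with 9.12%, 15.5% and 26.9% in mid-G1 and 100% in both late-G1 lists, Dpm2 of dolichol-phosphate mannose synthesis, with 1.89%, 0% and 9.0% in mid-G1 and 50.1% and 76.8% in late-G1, and Tnfaip8l2, Gpbar1 and Cox7a1, with differences of 60.6, 57.1 and 55.6 percentage points. These are short genes of 0.575 to 2.34 kb measured length, in which 1 peak can fill the body. The 5 with the largest loss were Gtse1, 2310014L17Rik, Psrc1, Ctxn1 and the thiamine transporter gene Slc19a2. Gtse1, which encodes a microtubule-bound regulator of p53, was covered over 36.0%, 73.2% and 66.7% in mid-G1 and 13.0% and 26.6% in late-G1. Psrc1 was covered over 43.5%, 73.1% and 72.1% in mid-G1 and 34.8% and 25.4% in late-G1, and Slc19a2 over 42.9%, 65.8% and 49.0% in mid-G1 and 25.5% and 20.8% in late-G1. All late-G1 values of these 3 lay below the mid-G1 values.

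Among the other lists, progenitor regulators had 9 of 21 bodies with more coverage in both late-G1 lists (42.9%) and 0 with less, erythroid and heme genes 12 of 30 (40.0%) and 0, CTCF and cohesin genes 5 of 13 (38.5%) and 0, erythroid markers 3 of 9 and 0, sterol synthesis 8 of 25 and 0, immediate early genes 8 of 27 (29.6%) and 0, and G1 cyclins and E2F genes 6 of 24 and 0. In the auxin libraries the progenitor list had 1 body with more and 1 with less coverage in late-G1, and the erythroid and heme list 2 and 3. CTCF and cohesin genes had 2 and 1 there, erythroid markers 0 and 1, and sterol synthesis 0 and 5. Immediate early genes had 7 and 3 there, and G1 cyclins and E2F genes 5 and 4. Over all 8145 genes the auxin shares were 7.66% and 15.7%. Bcl11a, a zinc finger repressor, was covered over 17.0%, 55.4% and 44.8% in mid-G1 and 66.6% and 82.7% in late-G1 without auxin. Bnip3l, which marks mitochondria for removal in maturing red cells, was covered over 10.8%, 38.0% and 31.5% in mid-G1 and 57.5% and 70.2% in late-G1. Egr1, an early growth response factor, was covered over 0.275%, 0% and 0% in mid-G1 and 25.8% and 18.4% in late-G1, and Rad21 of cohesin over 0.680%, 20.2% and 20.5% in mid-G1 and 38.8% and 48.2% in late-G1. These 4 were also named after their values were seen, and all had more coverage in each late-G1 list. Lists below the background of 21.7% were ribosome biogenesis (1 of 44), splicing regulators (1 of 33), replication genes (2 of 51), ribosomal proteins (5 of 73), proteasome subunits (3 of 37), oxidative phosphorylation (10 of 70), the integrated stress response (4 of 28, and 1 with less), PolII factors (10 of 68), chaperones (4 of 27) and histones (0 of 11). The median coverage of ribosomal protein genes was 90.8% to 100% in each list, near the most that can be measured. Of the other cell type markers, 1 body was measured and it overlapped.

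Along genes longer than 20 kb, the profile of peaks had a maximum at the TSS and another after the gene end in all 5 lists. Only genes with a TSS peak in each of the 5 lists entered, so the maximum at the TSS follows from this choice. A peak covered the base of the gene start in 75.4%, 85.4% and 88.3% of these genes in mid-G1 and in 88.0% and 91.1% in late-G1. The TSS peak of the others lay beside this base or at another annotated start. At 4 kb after the gene start the shares were 2.12%, 6.51% and 8.26% in mid-G1 and 4.70% and 19.6% in late-G1. The late-G1 libraries differed from each other there by more than the mid-G1 libraries did, and replicate 3 stayed above the others at equal list size, with 12.7% against 2.12%, 5.02% and 5.33% in mid-G1 and 4.05% in late-G1 replicate 2. At 1 kb after the gene end the shares were 20.3%, 43.1% and 37.7% in mid-G1 and 40.9% and 49.0% in late-G1, higher than at the end itself in each list.

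**Figure D5:**
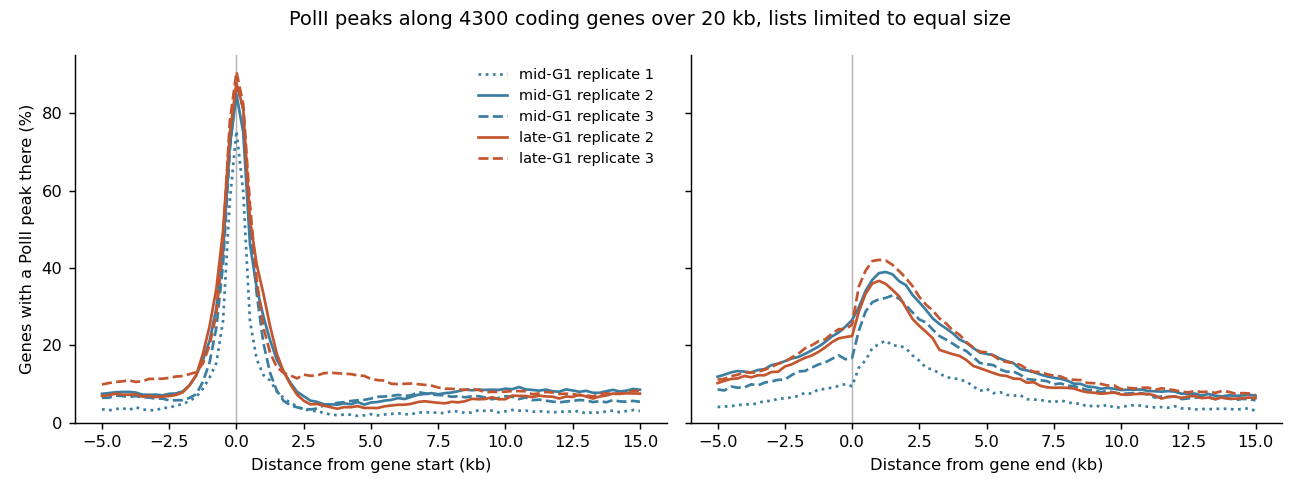
Share of genes longer than 20 kb with a peak (%) at each distance (kb) from the gene start and from the gene end, one line per library at equal list size. All lines peak at the TSS and rise again after the gene end, and late-G1 replicate 3 lies above the rest at 4 kb from the gene start with 12.7%.

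The step from mid-G1 to late-G1 was also measured in cells that had lost CTCF. In the 5 auxin libraries (3 in mid-G1, 2 in late-G1), of 8210 TSSs with a peak in all 10 lists, 1480 stood higher and 1599 lower (19.5%) in late-G1 without overlap. In these libraries alone limma called 110 TSSs higher and 120 lower of 8910 tested, and 805 and 828 at an unadjusted p under 0.05, beside 1 higher and 0 lower in the libraries without auxin. The limma test of a different step without and with auxin called 0 TSSs in either direction after adjustment, with 290 larger and 117 smaller without auxin at an unadjusted p under 0.05. Mitotic machinery had 21 of 47 higher and 4 lower in the auxin libraries, and p53 targets had 3 of 22 higher and 11 lower. Along gene bodies 7.66% of 8145 genes had more and 15.7% less coverage in late-G1 with auxin, with 14 of 47 mitotic genes more and 2 less, and 1 of 22 p53 targets more and 14 less. The auxin lists held 99936, 107666 and 74672 peaks in mid-G1 and 88511 and 74154 in late-G1. Their background was 8.38, 8.56 and 9.27 reads per kb in mid-G1 and 9.23 and 8.00 in late-G1. The part of list length and depth in the body shares with and without auxin was not tested. The comparisons share the input chromatin of their stage. Of the genes named above, Gcn1l1 and Fam83e had the largest gaps between the steps. Gcn1l1 ranked 1033, 2261.5 and 670 in mid-G1 and 2913.5 and 3130 in late-G1 with auxin, and Fam83e 167.5, 222.5 and 4184 in mid-G1 and 7318.5 and 5153 in late-G1. Their places were higher in late-G1 without auxin and lower with it, by an interaction of 5.56 and 6.80 (limma adjusted p = 0.554 for either).

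TSSs that stood higher or lower were compared by the sequence around their starts, as a description. The median GC content of the TSS windows was 62.5% for the 1408 higher, 63.0% for the 722 lower and 64.0% for all 8260, and the median gene length was 20.9, 18.4 and 21.3 kb. A CHR stood in 8.52% of the higher, 6.09% of the lower and 6.46% of all windows, and a CCAAT box in 37.1%, 33.9% and 32.8%. In the mitotic list 27 of 47 windows held a CHR (57.4%) and 33 a CCAAT box (70.2%), in the p53 list 2 of 22 and 9 of 22, and in the ribosome biogenesis list 1 of 44 and 11 of 44. The summits of mitotic genes lay at a median position of −38 bp from the annotated TSS, and those of all genes at 25 bp.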

How the data were processed

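The 5 peak lists came from PolII ChIP-seq in G1E-ER4 cells without auxin. The authors aligned reads to mm9 with Bowtie2 2.2.9 in local mode, removed low-quality, duplicate and blacklisted reads with SAMtools 0.1.19 and bedtools 2.27.1, and called peaks per library, not on pooled replicates, with MACS2 2.1.0 against the input of the same stage. The deposited fold enrichment is the ratio of summit pileup to local background as the authors' peak caller gave it. The deposited −log10 p-values and −log10 q-values are those of the authors' peak caller too and served to recover summit reads, to rank and to filter. Library totals stated by the study were not used here, and depth is given relative to the recovered background.

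From these lists, peaks were ranked by fold enrichment within a library, assigned to coding genes of the GENCODE annotation of NCBIM37 within 250 bp of a TSS, and summed over gene bodies from 500 bp after the annotated gene start for genes over 1 kb. Merged regions were ranked by their best peak among the regions detected in that library. List measures were compared by exact permutation over libraries, and −log2 ranks by limma 3.58.1 in R 4.3.3 with Benjamini-Hochberg adjustment over all features measured in the 5 lists. Other steps used Python 3.11.15, numpy 2.4.6, pandas 2.3.3 and SciPy 1.17.1. Merging, covered bases, summit reads and the exact permutation were checked on made-up data, and the limma fit of the stages on simulated data. The Jaccard permutation and the block and interaction fits were not checked in this way. Genes were named as the 10 TSSs per direction with the largest change among those called or, failing that, with ranks that did not overlap and an unadjusted p under 0.05, the 3 regions without a coding TSS per direction, every called region, the 4 best-ranked late-only and mid-only regions, the 5 gene bodies per direction, and the 2 list members with the highest and lowest change. Members and lists were chosen with earlier results of these data known. Alternatives covered the scale, list size, filters, merging, the replicate block and each library left out, and the counts without overlap under these settings were added after the data were seen. The replicate numbers 2 and 3 occur at both stages, and the deviations of equal-numbered libraries from their stage means correlated at 0.267 over 2 pairs, too few to show pairing.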

Additional observations from a re-analysis of the deposited data

How the results depend on the processing

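Peak number, covered length, width, body coverage and the shares of peaks inside genes and after gene ends kept their direction under each alternative that was run. The share of peaks over a coding TSS was 0.15 percentage points higher in late-G1 at equal list size and the intergenic share 0.18 points higher, each opposite to the full lists. The within-stage minus between-stage similarity ranged from −0.0578 to 0.0177 when 1 library was left out, and was above 0 without mid-G1 replicate 2 or 3. Late-only regions numbered 2082 at equal list size and 1396 when peaks within 1 kb were merged, and mid-only regions 175 at the stricter q-value and 75 when merged. With 1 library left out, late-only regions ranged from 4929 to 36779 and mid-only regions from 479 to 2808, the highest late-only count without late-G1 replicate 2 and the highest mid-only count without mid-G1 replicate 1.

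Limma called 144 TSSs higher and 98 lower in the fit of 14 libraries, 2 higher on −log10 p ranks, 4 higher with missing peaks set behind the list, 2 higher with the TSS base alone and 0 higher on normal scores. With 1 library left out it called 0 to 12 TSSs higher and 0 to 6 lower, the most without late-G1 replicate 2. For regions it called 138 higher and 195 lower in the fit of 14 libraries, 6 higher and 17 lower with missing peaks set behind the list, and 0 lower with a mean-variance trend, on normal scores, −log10 p ranks, fold enrichment or summit pileup, or after merging within 1 kb. With 1 library left out these counts were 0 to 5 higher and 0 to 12 lower. The region at chr13:48970153-48976610 had a change of −0.0034 on the summit pileup scale, opposite to its rank. The cause of these differences was not tested.

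With the replicate number as a block, limma called 0 TSSs in either direction and 0 higher and 1 lower region. That region was chr1:72301080-72305573 (limma adjusted p = 0.0348), while the region between Bag6 and Prrc2a was not called (limma adjusted p = 0.0903). With the block the log2 difference in peak number was 0.026. The numbers are shared labels only, and a call lost in this fit is no measure of a weaker effect. Depth limits detection of weak peaks, and the library with the fewest peaks limits which features were measured in all 5 lists.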
